A study of Mus musculus with 2 samples.

Results

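The genes described here are 45 components of the p53 network: p53 and an inhibitor of it, inhibitors of cyclin-dependent kinases, the retinoblastoma family, p53 target genes, and regulators of apoptosis. They were chosen by gene symbol from a list of names, and all 45 were found once among the 22383 genes of the table. A gene is called measured if either library gave it 20 counts or more, which held for 43 of them. The exceptions were Gdf15, a secreted stress cytokine, and Birc3, an inhibitor of apoptosis. The RNA came from iHFSC2, a mouse cell line labelled as hair follicle stem cells. The shcircSmad5 library came from cells that carry a lentiviral hairpin directed at circSmad5, which is a circular transcript of Smad5, and the other library from cells infected with the empty vector. In both groups puromycin was added on day 4 after infection and stable lines were in hand on day 15. No line with a control hairpin was analysed here, and how the parental line gained its continuous growth, which can bear on p53 and retinoblastoma proteins, is not given in the sources used here.

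There was 1 library per group, so no difference below has a replicate check, and each ratio compares these libraries, not the conditions. The libraries held 38382081 gene counts (shcircSmad5) and 39261010 (empty vector). Basal keratinocyte markers were abundant: Krt5, Krt14, Trp63, Itga6, Itgb4 and Col17a1 were all measured, with summed levels of 6768 FPKM in the shcircSmad5 library and 5485 FPKM in the empty vector library. FPKM divides a count by the length of the gene model and the size of the library, which allows levels to be compared between genes. Of the stem cell markers of the hair follicle, Krt15 had 79 counts in the shcircSmad5 library and 253 in the empty vector library, 3.27-fold lower (2.53 to 4.26, a 95% counting interval), and Sox9 had 33.4 FPKM (shcircSmad5) and 54.4 FPKM (empty vector), 1.70-fold lower (1.64 to 1.76). Nfatc1 and Tcf7l1 were measured and had log2 ratios, shcircSmad5 over empty vector, of -0.18 and 0.01, while Cd34 had 0 counts in both libraries and Lhx2 had 5 counts (shcircSmad5) and 4 counts (empty vector), so the label rests on part of its marker set. The part of these marker differences in the results below was not tested. Markers of fibroblasts, melanocytes and endothelium summed to less than 1 FPKM in either library, at 0.171, 0.39 and 0.124 FPKM in the shcircSmad5 library and 0.409, 0.267 and 0.451 FPKM in the empty vector library. Immune markers summed to 4.66 FPKM (shcircSmad5) and 5.10 FPKM (empty vector), nearly all of it Cd68. Only 3 of 5 immune markers, 2 of 5 melanocyte markers and 6 of 7 follicle stem cell markers were among the deposited genes. The levels of the missing markers are unknown, and the sums leave them out.

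The protein p53 is a transcription factor that is kept low by the ubiquitin ligase Mdm2 and its partner Mdm4, and that accumulates after DNA damage and other stress. It then activates genes that stop the cell cycle, repair DNA or start apoptosis, and it also activates Mdm2, which closes a feedback loop. Arrest runs through inhibitors of cyclin-dependent kinases, which leave the retinoblastoma family free to repress cell cycle genes. Death runs through the BCL2 family at the mitochondrion, the apoptosome and the caspases. In skin, the same machinery controls the survival of keratinocytes and follicle stem cells.

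The DNA element that p53 binds is a pair of 10-base half-sites, and it was searched in the promoters of the listed genes as a feature that the choice of genes did not use directly. The windows run from 250 bases before to 50 bases after each start in RefSeq on GRCm38.p6, and 39 of the 45 genes had one. A half-site with no mismatch, which is its own reverse complement and so reads alike on both strands, lay in the windows of 11 of the 39 genes (28.2%). The share was 8.17% among 9257 measured protein-coding genes and 9.55% among all 27025 genes with a window. A full site, a pair of half-sites with up to 13 bases between them, was found in 1 of the 39 genes without mismatch, Cdkn1a, against 0.0432% of the measured protein-coding genes. With 1 mismatch allowed, 4 of the 39 genes (10.3%) held one, against 0.972%. Many of the listed genes are on the list because they are known p53 targets, so these shares describe the list and its promoters and say nothing of binding in these cells. The 4 stretches with a full site at 1 mismatch are shown because they carry the element closest to the known p53 sequence. They are written 5′ to 3′ on the gene's own strand, with both half-sites in capitals; for each gene the match with the shortest spacer is shown, which for Cdkn1a is the adjoining pair with 1 mismatch and not the pair without mismatch.
Cdkn1a: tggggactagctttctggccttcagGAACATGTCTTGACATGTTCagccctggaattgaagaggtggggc
Ccng1: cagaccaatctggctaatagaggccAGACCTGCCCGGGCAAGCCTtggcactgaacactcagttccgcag
Bax: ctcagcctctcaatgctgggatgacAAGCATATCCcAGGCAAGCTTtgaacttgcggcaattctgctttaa
Polk: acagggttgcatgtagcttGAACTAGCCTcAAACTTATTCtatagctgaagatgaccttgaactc

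The Cdkn1a stretch lies at chr17:29090903-29090972 on the plus strand, and its site ends 32 bases before the start of that window's transcript. The Ccng1 stretch lies at chr11:40755437-40755506, the Bax stretch at chr7:45467065-45467135 and the Polk stretch at chr13:96519373-96519437, all on the minus strand. None of the 4 stretches overlaps an annotated exon. The Polk window belongs to a start inside the gene, while the window of its outer start held no half-site. The 4 genes did not share a direction between the libraries: the log2 ratios, shcircSmad5 over empty vector, were 0.52 for Ccng1, -0.09 for Cdkn1a, -0.53 for Bax and -0.56 for Polk. Over the 11 genes with a half-site, 4 had a log2 ratio above 0 and 7 below, with a median of -0.09. Over the 26 measured genes with a window and no half-site, 10 lay above 0 and 16 below, with a median of -0.04. Sequence outside the windows was not searched, and both sets mix p53 targets with other listed genes. Cdkn2d and Birc2 are among the genes with a half-site, and the targets Bbc3, Eda2r, Phlda3 and Sesn2 among those without.

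Few of the listed genes passed a limit of size between the libraries. Counts were scaled by TMM, which sets the libraries level over most genes, and each ratio has a 95% interval from the split of its counts, which covers counting error only. To pass the 2-fold rule, a measured gene had to differ by 2-fold or more with its whole interval on one side of 1. By that rule 1 of the 43 measured genes was higher in the shcircSmad5 library, the inflammatory caspase gene Casp4, and 0 were lower, 2.33% in all. Among 11598 measured protein-coding genes, 4.6% were higher and 6.38% were lower, 11.0% in all, and over all 13596 measured genes of every type 8.43% were higher and 6.24% lower, 14.7% in all. At a limit of 1.5-fold, 4 of the 43 were higher (Casp4, Eda2r, Sesn2 and Rrm2b) and 3 were lower (Bak1, Plk2 and Cdkn2d). The share of 16.3% compares with 22.9% of protein-coding genes, of which 9.29% were higher and 13.6% lower, and with 26.8% of all measured genes, of which 13.9% were higher and 12.9% lower. Plk2 and Cdkn2d lay at the limit and passed it under some scalings only. The listed genes are well counted, each measured one with at least 100 counts in 1 library, and 83.7% of them differed by less than 1.5-fold, near the 80.8% of 10303 protein-coding genes with that many counts. Their median absolute log2 ratio was 0.33, against 0.27 over those genes. The middle of the list was level, with a median log2 ratio of -0.01 beside -0.05 over protein-coding genes. In RNA from whole cultures, a change in the share of cells that express a gene and a change in its RNA per cell cannot be told apart.

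**Figure D1:**
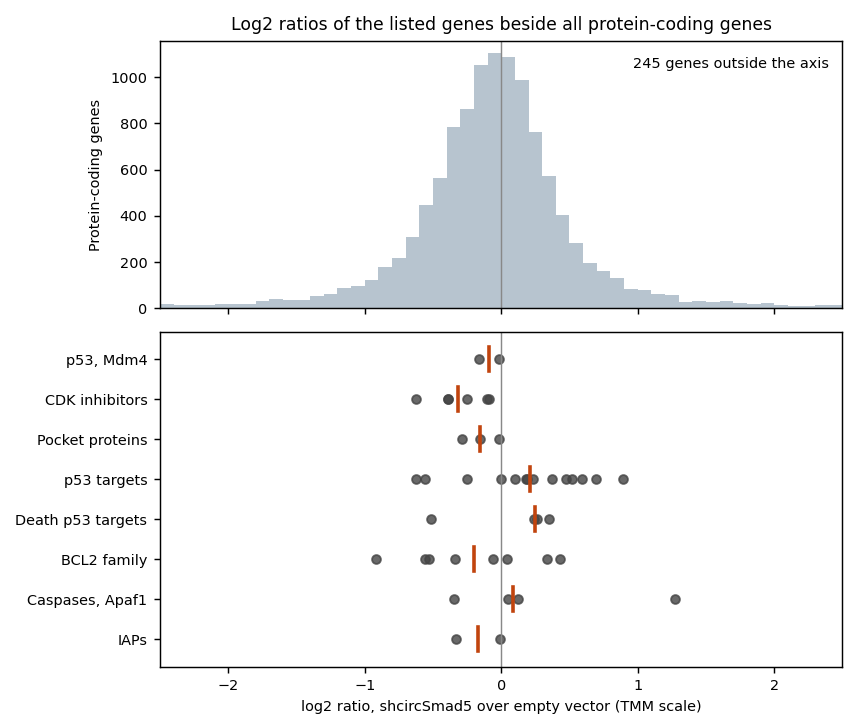
Top, number of protein-coding genes per log2 ratio (shcircSmad5 over empty vector, 1 library each), with 245 genes outside the axis; bottom, each measured listed gene as a point by role, with the median of its group as a vertical bar. The CDK inhibitors all lie left of 0 on this scale. Cdkn1a and Cdkn1b turn positive with upper quartile scaling, and Cdkn1a also relative to its chromosome's median. The p53 targets, a group without Cdkn1a, have their median right of 0, at 0.21.

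Trp53 (ENSMUSG00000059552, GRCm38 chromosome 11, 69580359 to 69591873), the gene of p53 itself, was abundant in both libraries. It had 7088 counts and 45.7 FPKM in the shcircSmad5 library, against 7760 counts and 48.9 FPKM in the empty vector library. The log2 ratio was -0.16 (95% counting interval -0.21 to -0.11), short of either rule. The longest Trp53 transcript matches other genes over 23.1% of its bases at 95% identity, the pseudogene Trp53-ps above all, so the value is uncertain where reads were shared. Mdm4, which binds p53 and holds back its activity, had 6.92 FPKM (shcircSmad5) and 6.69 FPKM (empty vector), with a log2 ratio of -0.01 (-0.08 to 0.05). Mdm2, the partner of Mdm4 and no member of the list, had 32565 counts in the shcircSmad5 library and 70298 in the empty vector library, 2.20-fold lower (2.18 to 2.23). Mdm2 is also a p53 target, and at 167 FPKM (shcircSmad5) and 352 FPKM (empty vector) it was above every listed gene in both libraries.

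Of 18 regulators of p53 that are not on the list, 2 were higher and 4 lower at 1.5-fold, and 2 were lower at 2-fold. The share of 33.3% past 1.5-fold stands beside 22.9% of protein-coding genes, and 2 in place of 4 were lower with upper quartile scaling or with totals that leave out the top 20 genes. Besides Mdm2, the p53 relative Trp73 was 3.04-fold lower (2.58 to 3.59), with 197 counts in the shcircSmad5 library and 587 in the empty vector library. The median log2 ratio of these regulators was -0.17.

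On the TMM scale, the 6 inhibitors of cyclin-dependent kinases all had log2 ratios and intervals below 0. Cdkn1a and Cdkn1b turned positive with upper quartile scaling, and Cdkn1a stood at 0.29 relative to the median of its chromosome. The intervals of Cdkn1a, Cdkn1b and Cdkn2a spanned 0 with upper quartile scaling. Those of Cdkn1a and Cdkn1b also did so with total counts or totals without the top 20 genes. That of Cdkn1a did so with TMM from protein-coding genes as well. Relative to the chromosome 4 median of -0.20, the intervals of Cdkn2a and Cdkn2c spanned 0. The median log2 ratio of the 6 was -0.32, or -0.18 with each chromosome set level at its own median. By the 1.5-fold rule 1 of the 6 passed, 16.7% beside 22.9% of protein-coding genes. Of 11598 measured protein-coding genes, 6379 had a log2 ratio below 0. Cdkn1a (ENSMUSG00000023067, GRCm38 chromosome 17, 29090976 to 29100727) encodes p21, the inhibitor through which p53 stops the cell cycle. It had 5123 counts and 37.6 FPKM in the shcircSmad5 library and 5347 counts and 38.3 FPKM in the empty vector library, a log2 ratio of -0.09 (-0.15 to -0.04). Cdkn1b, which encodes the related inhibitor p27, had 5229 counts (shcircSmad5) and 5514 counts (empty vector), a log2 ratio of -0.11 (-0.16 to -0.05). These were the most abundant inhibitors, and neither library stood far from the other.

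The INK4 genes block Cdk4 and Cdk6, the kinases that start the inactivation of the retinoblastoma family. Cdkn2d (ENSMUSG00000096472, GRCm38 chromosome 9, 21288410 to 21291407), which encodes p19INK4d, had 235 counts in the shcircSmad5 library, against 354 in the empty vector library, and was 1.54-fold lower (1.30 to 1.82). That call was lost under 5 of 9 other settings, with a smallest fold of 1.42. The 9 settings used here include other count minimums. These could not change the call of any measured listed gene, as each had at least 100 counts in 1 library. Cdkn2a, whose locus gives both p16INK4a and p19ARF, had 676 counts (shcircSmad5) and 786 counts (empty vector), with a log2 ratio of -0.25 (-0.40 to -0.10). A gene count does not separate its products. Its neighbour Cdkn2b, on chromosome 4 like Cdkn2a and Cdkn2c, had a log2 ratio of -0.39, as did Cdkn2c. The median log2 ratio of all measured genes on chromosome 4 was -0.20, and relative to it Cdkn2a stood at -0.05, Cdkn2b at -0.19 and Cdkn2c at -0.18. Summed over the 4 INK4 genes, the level was 34.4 FPKM in the shcircSmad5 library and 42.2 FPKM in the empty vector library.

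The retinoblastoma family of pocket proteins binds E2F factors and represses the genes of cell cycle entry. Rbl1, which encodes p107, was its most abundant member, at 19.2 FPKM (shcircSmad5) and 18.6 FPKM (empty vector), and its log2 ratio of -0.02 (-0.08 to 0.04) had an interval that spans 0. Rb1 had 1225 counts in the shcircSmad5 library and 1336 in the empty vector library, a log2 ratio of -0.16 (-0.27 to -0.04). Rbl2, which encodes p130, had a log2 ratio of -0.29 (-0.41 to -0.18). Exons of genes on the opposite strand cover 21.0% of the exon bases of Rbl2 and 14.9% of those of Rb1, and whether strand was used in counting is not given in the sources used here.

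Among 17 measured genes of the G1 kinases, their cyclins, E2F factors and further brakes that hold no listed gene, 1 was higher and 2 were lower at 1.5-fold, and 0 passed the 2-fold rule in either direction. The share of 17.6% past 1.5-fold stands beside 22.9% of protein-coding genes. With total counts, upper quartile scaling or totals without the top 20 genes, 1 was higher at 2-fold, and with these, TMM from protein-coding genes or FPKM, 2 were higher at 1.5-fold. Relative to chromosome medians, 0 were lower at 1.5-fold. Their median log2 ratio was -0.09, and it turned to 0.03 with upper quartile scaling and to 0.02 relative to chromosome medians. The cyclin gene Ccnd2 had 45693 counts in the shcircSmad5 library and 30176 in the empty vector library, a log2 ratio of 0.57 (0.55 to 0.59). Cdk6, its kinase partner, had 25526 counts (shcircSmad5) and 24021 counts (empty vector), a log2 ratio of 0.06 (0.03 to 0.08).

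The genes grouped here as p53 targets of arrest, stress defence and repair, a group without Cdkn1a, had their median on the other side of 0. Of 14 measured genes, 10 had a log2 ratio above 0 and 4 below, with a median of 0.21; of these, Btg2 alone changed sign with the scaling. At 1.5-fold, 3 were higher and 1, Plk2, was lower, 28.6% beside 22.9% of protein-coding genes; under 6 other settings 0 were lower. Together with the death receptor and BH3-only targets, 13 of 18 lay above 0, with a median of 0.24, beside 5198 of 11598 protein-coding genes above 0. This direction was known from earlier results of these data and is a description. Cdkn1a, Bax and Mdm2, also p53 targets, were grouped by other roles and are in neither these 18 nor the 23 below. Their log2 ratios were -0.09, -0.53 and -1.14, so the share above 0 depends on the grouping. In 23 other measured p53 targets that are not on the list, 14 lay above 0 and 9 below, and 3 were higher and 4 lower at 1.5-fold, 30.4% beside the same 22.9%. Their median log2 ratio was 0.11, or 0.04 relative to chromosome medians, while their mean was -0.10, on the other side of 0. The lowest value, -3.24 for Trp53i11 with 4 counts (shcircSmad5) and 37 counts (empty vector), weighs on that mean. A mean without it was not computed.

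**Figure D2:**
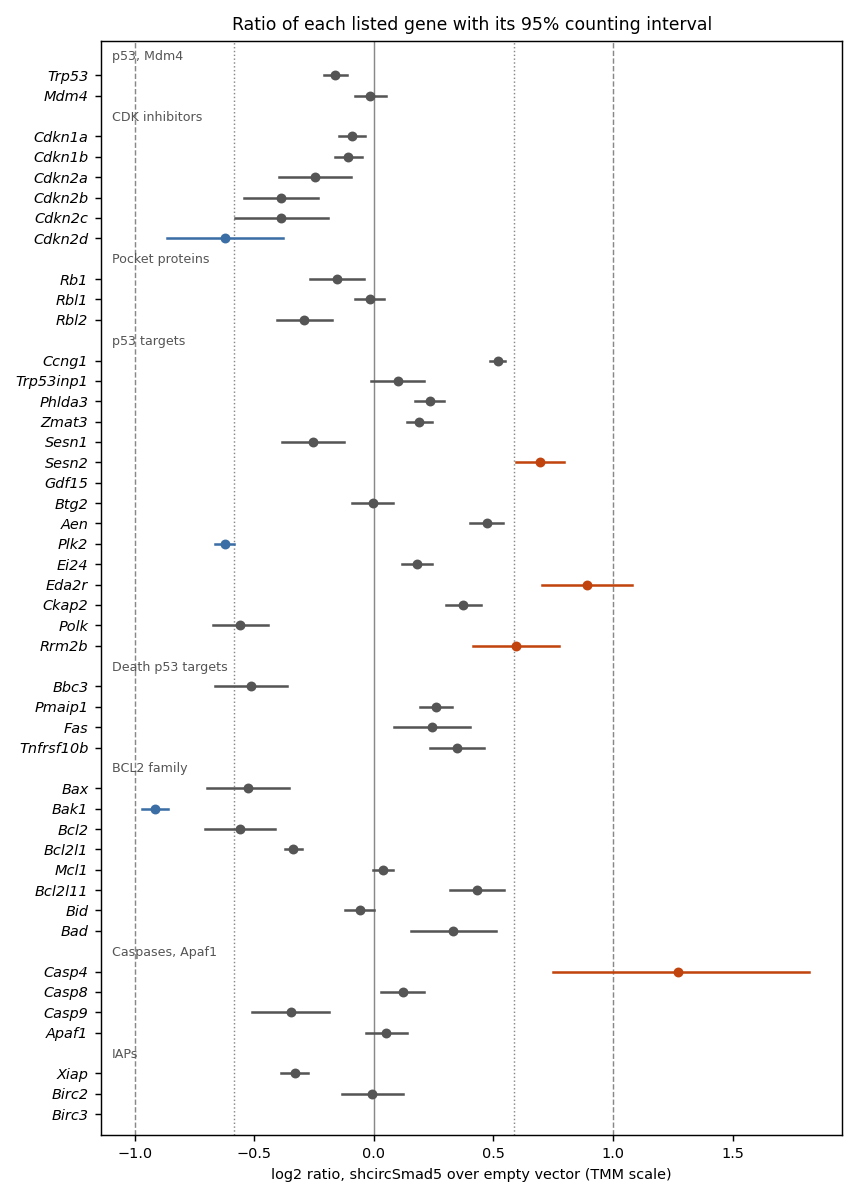
Log2 ratio of each listed gene, shcircSmad5 over empty vector, with its 95% counting interval (horizontal line); dotted lines mark 1.5-fold and dashed lines 2-fold, orange marks genes higher and blue genes lower by the 1.5-fold rule. Casp4 alone lies beyond 2-fold; Gdf15 and Birc3 were below the count minimum and have no point.

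Eda2r (ENSMUSG00000034457, GRCm38 chromosome X, 97333840 to 97377216), a receptor of the tumour necrosis factor family that binds the ectodysplasin form EDA-A2, had 683 counts in the shcircSmad5 library, against 361 in the empty vector library. It was 1.85-fold higher (1.63 to 2.11), at a low level of 3.02 FPKM in the shcircSmad5 library and 1.56 FPKM in the empty vector library. It lies on the X chromosome, whose measured genes had a median log2 ratio of -0.43, and relative to that median its log2 ratio was 1.32. Sesn2 (ENSMUSG00000028893, GRCm38 chromosome 4, 132492032 to 132510501), a stress sensor that restrains the growth kinase complex mTORC1, had 2177 counts (shcircSmad5) and 1318 counts (empty vector) and was 1.62-fold higher (1.51 to 1.73). Its relative Sesn1 had 927 counts in the shcircSmad5 library and 1083 in the empty vector library, a log2 ratio of -0.25 (-0.38 to -0.13), on the other side of 0 from Sesn2. Rrm2b (ENSMUSG00000022292, GRCm38 chromosome 15, 37923952 to 37961318), the p53-induced subunit of ribonucleotide reductase that supplies nucleotides for DNA repair, had 653 counts (shcircSmad5) and 424 counts (empty vector) and was 1.51-fold higher (1.33 to 1.71). Relative to the chromosome 15 median of 0.20, Rrm2b was 1.31-fold higher and did not pass. Its longest transcript matches Gm8616 over 23.0% of its bases at 95% identity, and exons of Gm49085 on the opposite strand cover 8.04% of its exon bases, so this value too is uncertain where reads were shared.

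Plk2 (ENSMUSG00000021701, GRCm38 chromosome 13, 110395046 to 110400844), a kinase gene induced by p53 and by serum, was the member of this group that was lower. It had 8746 counts and 50.7 FPKM in the shcircSmad5 library, against 13205 counts and 74.9 FPKM in the empty vector library, 1.54-fold lower, with a log2 ratio of -0.62 (-0.66 to -0.59). The call was lost under 6 of 9 other settings, with a smallest fold of 1.34 relative to the chromosome 13 median of -0.20. It held with DESeq2 size factors and with the other count minimums, which could not change it. Polk, a DNA polymerase that copies past damaged bases and lies on the same chromosome, had 1048 counts (shcircSmad5) and 1512 counts (empty vector), a log2 ratio of -0.56 (-0.67 to -0.44), just short of the limit.

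Ccng1, which encodes cyclin G1, a protein that recruits a phosphatase to Mdm2, was the most abundant listed gene in both libraries. It had 19025 counts and 141 FPKM in the shcircSmad5 library, against 13013 counts and 94.4 FPKM in the empty vector library. The log2 ratio of 0.52 (0.49 to 0.55) fell short of 1.5-fold. Ccng1 passed that limit under 2 of 9 other settings, upper quartile scaling and totals without the top 20 genes. Phlda3, an inhibitor of the survival kinase AKT, had 80.2 FPKM (shcircSmad5) and 65.4 FPKM (empty vector), a log2 ratio of 0.23 (0.17 to 0.29). The exonuclease gene Aen had a log2 ratio of 0.47 (0.40 to 0.54) and the spindle-associated gene Ckap2 one of 0.37 (0.30 to 0.45). Zmat3, Ei24 and Trp53inp1 lay between 0.10 and 0.19, and Btg2, an antiproliferative gene, had 2250 counts (shcircSmad5) and 2211 counts (empty vector), a log2 ratio of -0.00 (-0.09 to 0.08). Gdf15, often used as a readout of p53 and stress signalling, had 0 counts in the shcircSmad5 library and 1 in the empty vector library, too few for a ratio.

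**Figure D3:**
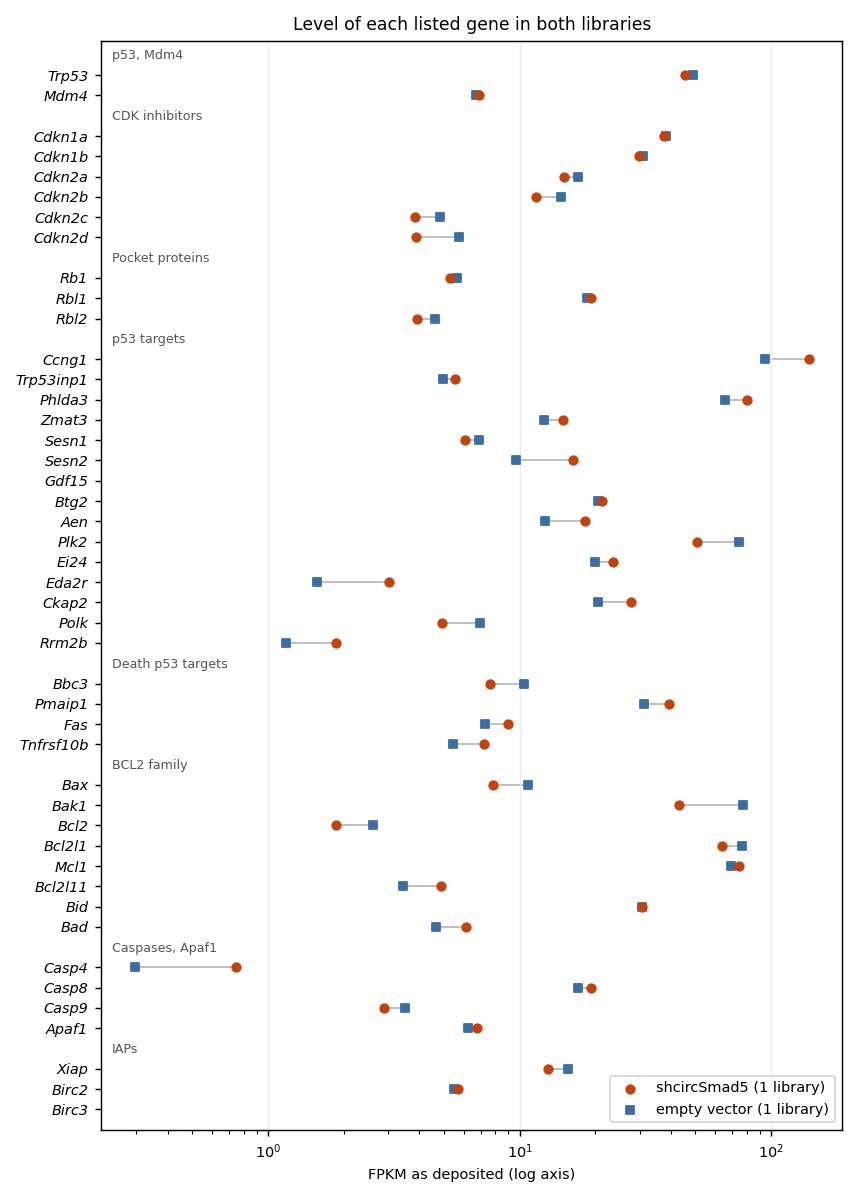
Deposited FPKM of each listed gene on a log axis, with the shcircSmad5 library as orange circles and the empty vector library as blue squares, joined by a grey line and grouped by role. Levels run from below 1 FPKM (Casp4) to 141 FPKM (Ccng1). By TMM-scaled counts, Bak1, Plk2, Sesn2, Eda2r, Rrm2b, Cdkn2d and Casp4 are the genes past 1.5-fold. In the FPKM drawn here, Plk2 and Cdkn2d fall short of that limit. Gdf15 and Birc3 are not drawn.

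Of the further p53 targets off the list, 2 were higher and 2 lower at 2-fold, beside 4.6% and 6.38% of protein-coding genes. Dcxr, a carbonyl reductase, was 2.37-fold higher (2.14 to 2.63), with 1234 counts in the shcircSmad5 library and 510 in the empty vector library. Psrc1, a spindle protein gene, was 2.13-fold higher (1.68 to 2.72), and relative to its chromosome's median it had a log2 ratio of 0.96, short of 2-fold. Steap3, a metalloreductase of iron uptake, had 1525 counts (shcircSmad5) and 3878 counts (empty vector) and was 2.60-fold lower (2.45 to 2.76). Trp53i11 had 4 counts (shcircSmad5) and 37 counts (empty vector), 9.44-fold lower with a wide interval (3.39 to 36.5), and it falls out at a minimum of 100 counts.

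The 4 targets grouped here as death receptors and BH3-only genes differed by less than 1.5-fold in each case. Eda2r, also a receptor of the tumour necrosis factor family and 1.85-fold higher, was counted in the other group of p53 targets. Pmaip1, which encodes the BH3-only protein NOXA that neutralises MCL1, had 4107 counts and 39.2 FPKM in the shcircSmad5 library, against 3360 counts and 31.3 FPKM in the empty vector library. Its log2 ratio was 0.26 (0.19 to 0.33). Bbc3, which encodes PUMA, the BH3-only protein that binds all anti-apoptotic relatives, had 621 counts (shcircSmad5) and 868 counts (empty vector), a log2 ratio of -0.51 (-0.66 to -0.36). The receptor genes Fas and Tnfrsf10b, which start apoptosis from the cell surface, had log2 ratios of 0.24 and 0.35, and the longest Tnfrsf10b transcript matches other genes over 17.9% of its bases. The BH3-only targets thus lay on opposite sides of 0, while both receptors lay above it.

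In the BCL2 family the ratio farthest from 1 on the TMM scale was that of Bak1 (ENSMUSG00000057789), which encodes BAK, a protein that opens the outer mitochondrial membrane. It had 3966 counts and 42.9 FPKM in the shcircSmad5 library, against 7325 counts and 77.5 FPKM in the empty vector library, 1.89-fold lower (1.81 to 1.96). Bak1 lies on chromosome 17 (GRCm38, 27019810 to 27029009, minus strand), whose measured genes had a median log2 ratio of -0.38. Relative to that median it was 1.45-fold lower and did not pass the 1.5-fold rule, and its log2 ratio of -0.53 then lay nearer to 0 than those of Bcl2l11, at 0.59, and Bcl2, at -0.58, each relative to its own chromosome. Exons of Ggnbp1 on the opposite strand cover 25.5% of its exon bases. Cdkn1a, on the same chromosome, had a log2 ratio of 0.29 relative to the same median.

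Bax, the other pore-forming gene on the list, had 474 counts and 7.84 FPKM in the shcircSmad5 library, against 669 counts and 10.8 FPKM in the empty vector library. Its log2 ratio was -0.53 (-0.70 to -0.36). Exons of Gm45808 on the same strand cover 12.2% of its exon bases. Both listed pore-forming genes therefore had fewer counts in the shcircSmad5 library, and their summed level was 50.8 FPKM there, against 88.3 FPKM in the empty vector library. The sum leaves out Bok, an apoptosis gene off the list, at 14.4 FPKM (shcircSmad5) and 21.1 FPKM (empty vector). Bak1 made up most of that sum in both libraries.

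The anti-apoptotic genes differed less in summed level, but not gene by gene. Bcl2 lay farther from 0 than Bax, whose log2 ratio was -0.53. Bcl2l1, which encodes BCL-XL, had 11198 counts in the shcircSmad5 library and 13854 in the empty vector library, a log2 ratio of -0.34 (-0.37 to -0.30). Mcl1 had 9793 counts (shcircSmad5) and 9334 counts (empty vector), a log2 ratio of 0.04 (-0.00 to 0.08), with an interval that spans 0. Bcl2 was low, at 1.86 FPKM (shcircSmad5) and 2.62 FPKM (empty vector), with 653 counts (shcircSmad5) and 942 counts (empty vector) and a log2 ratio of -0.56 (-0.70 to -0.41). The summed level of these 3 genes was 140.1 FPKM in the shcircSmad5 library and 149 FPKM in the empty vector library. Over the listed genes, anti-apoptotic over pore-forming level was 2.76 in the shcircSmad5 library and 1.69 in the empty vector library. These values have no replicate check, rest on Bak1 above all and leave out apoptosis genes off the list.

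**Figure D4:**
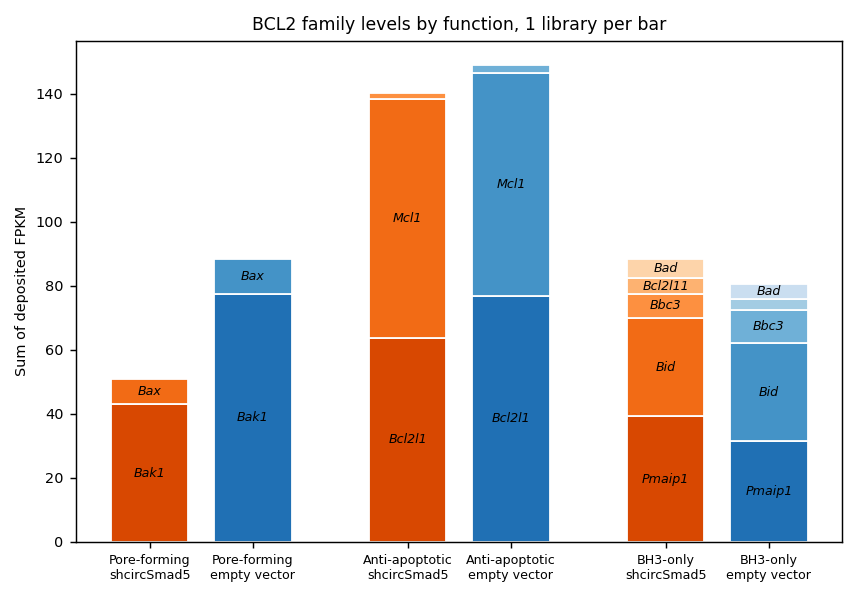
Summed FPKM of the listed pore-forming, anti-apoptotic and BH3-only genes, stacked by gene, in the shcircSmad5 library (orange) and the empty vector library (blue). Segments without a name are Bcl2 at the top of the anti-apoptotic bars and Bcl2l11 in the empty vector BH3-only bar. The pore-forming bars differ most, 50.8 FPKM in the shcircSmad5 library against 88.3 FPKM in the empty vector library.

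The BH3-only genes outside the p53 targets stayed within 1.5-fold on the TMM scale. Bcl2l11, which encodes BIM, had 1498 counts in the shcircSmad5 library and 1088 in the empty vector library, a log2 ratio of 0.43 (0.32 to 0.55). Relative to the median of its chromosome it was 1.51-fold higher and passed the 1.5-fold rule. Bad, a partner of BCL-XL, had a log2 ratio of 0.33 (0.15 to 0.51), and exons of Gpr137 on the opposite strand cover 20.5% of its exon bases. Bid, which caspase-8 cleaves, had 4182 counts (shcircSmad5) and 4269 counts (empty vector), a log2 ratio of -0.06 (-0.12 to 0.00), with 17.7% of its exon bases covered by exons of Bcl2l13 on the opposite strand. Summed with Bbc3 and Pmaip1, the BH3-only level was 88.4 FPKM in the shcircSmad5 library and 80.5 FPKM in the empty vector library.

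Casp4 (ENSMUSG00000033538, GRCm38 chromosome 9, 5308828 to 5336783), which encodes the mouse inflammatory caspase-11, a sensor of bacterial lipopolysaccharide in the cytosol, was the member past 2-fold. It had 106 counts and 0.744 FPKM in the shcircSmad5 library, against 43 counts and 0.295 FPKM in the empty vector library, 2.41-fold higher (1.68 to 3.53). It was low in both libraries, and its call held under all 9 other settings at 1.5-fold. The 9 include other count minimums, which its 106 counts passed in any case. The apoptotic caspases stayed within 1.5-fold, Casp8 above 0 and Casp9 below. Casp8, the initiator caspase of the death receptors, had 2142 counts (shcircSmad5) and 1931 counts (empty vector), a log2 ratio of 0.12 (0.03 to 0.21). Casp9, the initiator of the mitochondrial route, had 575 counts (shcircSmad5) and 717 counts (empty vector), a log2 ratio of -0.35 (-0.51 to -0.19). Apaf1, the scaffold of the apoptosome on which caspase-9 is activated, had a log2 ratio of 0.05 (-0.03 to 0.14).

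The inhibitors of apoptosis bind caspases or ubiquitinate signalling proteins. Xiap, the direct caspase inhibitor, had 4720 counts in the shcircSmad5 library and 5818 in the empty vector library, a log2 ratio of -0.33 (-0.39 to -0.28). It lies on the X chromosome and stood at 0.09 relative to that chromosome's median. Birc2, which encodes cIAP1, had 1003 counts (shcircSmad5) and 987 counts (empty vector), a log2 ratio of -0.01 (-0.13 to 0.12). Its neighbour on chromosome 9, Birc3, had 4 counts in the shcircSmad5 library and 0 in the empty vector library, below the minimum for a ratio.

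Among 32 measured apoptosis genes off the list, 3 were higher and 5 lower at 1.5-fold, 25% beside 22.9% of protein-coding genes, with a median log2 ratio of -0.03. The count of lower genes was 3 with total counts or relative to chromosome medians, 2 with FPKM or without the top 20 genes, and 1 with upper quartile scaling. Bnip3, a BH3-like gene of mitophagy, was the gene past 2-fold, 2.27-fold higher (1.94 to 2.65), with 549 counts in the shcircSmad5 library and 237 in the empty vector library.

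Chromosome medians moved with several of these values. They ranged over the chromosomes with listed genes from -0.43 on X and -0.38 on chromosome 17 to 0.20 on chromosome 15. With each chromosome set level at its own median, the median log2 ratio was -0.03 over the 43 genes and 0.20 over the 18 grouped as p53 targets. The part of chromosome-wide differences in the calls of Bak1, Plk2 and Rrm2b was not tested beyond that centring.

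**Figure D5:**
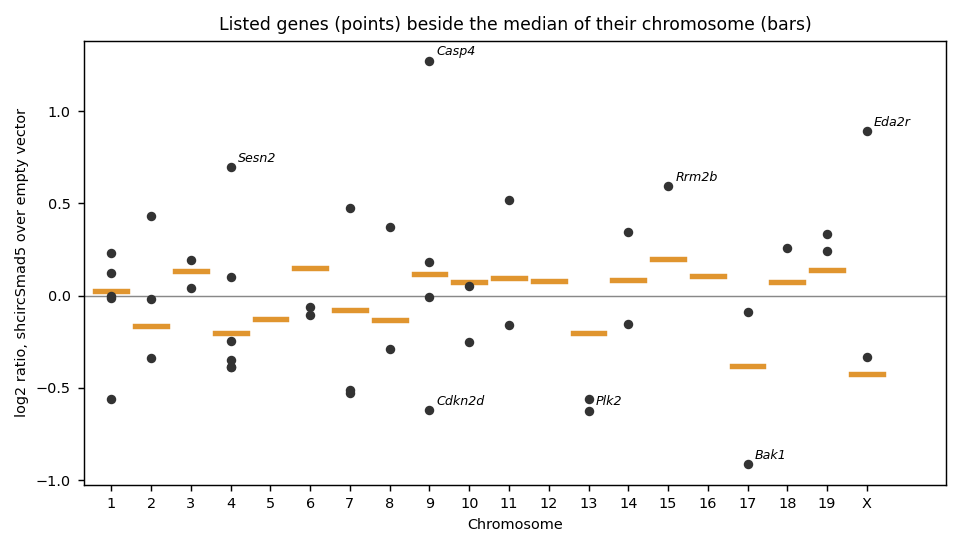
Log2 ratio of each measured listed gene (points; shcircSmad5 over empty vector, 1 library each) by chromosome, with the median over all measured genes of that chromosome as an orange bar and the genes past 1.5-fold named. Bak1 and Plk2 lie on chromosomes with medians below 0, at -0.38 and -0.20, while Eda2r and Sesn2 lie high on chromosomes with medians below 0.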

How the data were processed

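Raw read counts and FPKM values per gene were deposited for both libraries, per the file headers. The deposited FPKM values follow from the counts, the column total and a gene length that is whole within 0.001 bases for 100% of genes above 0. The submitters' processing notes name HISAT2, HTSeq (0.13.5), GRCm38 and GRCh38 without their roles. Neither annotation nor strand setting is given in the sources used here. Per the labels' protocols, 3 µg of total RNA per sample was depleted of ribosomal RNA and made into directional libraries.

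Scaling was by TMM (edgeR 4.0.16, R 4.3.3), and ratios are shcircSmad5 over empty vector with exact Clopper-Pearson 95% intervals of the count split, which cover counting error only. With 1 library per group no test was made. The rules of 2-fold and 1.5-fold were tried on simulated counts that hold counting error only. Such counts leave out the spread between cultures, so the trial cannot show how the rules deal with it. Positions and biotypes come from GENCODE M21, near-identical copies from megablast at 95% identity over at least 75 bases, and promoters from RefSeq. Described in full are genes past 1.5-fold, the 2 with the highest mean FPKM per role and a few key genes. From each list off the members come up to 4 genes past 2-fold, or the 2 with the most counts. The members and lists were chosen with earlier results of these data known, and the BCL2 family sums after their values were seen. Other settings were 5 scalings including DESeq2 1.42.0 size factors, other count minimums, log2(FPKM + 0.1), prior counts, means and chromosome centring. The number of value columns without a library was 0.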

Additional observations from a re-analysis of the deposited data

How the results depend on the processing

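Other scalings all shift every log2 ratio upward by a constant, from 0.012 (DESeq2 size factors) to 0.11 (upper quartile). TMM thus gives the lowest ratios of the 6 scalings, so genes lower in the shcircSmad5 library look farthest from 1 and higher genes nearest to it. Of 43 genes, 36 kept their sign under all 6 scalings, while Mdm4, Cdkn1a, Cdkn1b, Rbl1, Btg2, Bid and Birc2 did not. At 2-fold, upper quartile scaling and chromosome centring each gave 2 genes higher (1 in the main setting), 1 of them a p53 target (0). At 1.5-fold, total counts, upper quartile, totals without the top 20 genes, TMM from protein-coding genes, FPKM and chromosome centring each left 1 gene lower (3) and 0 p53 targets lower (1); upper quartile gave 5 p53 targets higher (3). The median over all members was 0.10 with upper quartile scaling and 0.063 without the top 20 genes, and over the p53 targets 0.35 and 0.31. Allowing 1 mismatch raised the genes with a full p53 site from 1 to 4. In 1 further setting, chosen after seeing the data, 14 genes that share 5% or more of their bases with other genes were left out. That gave 3 higher (4) and 2 lower (3) at 1.5-fold, 2 p53 targets higher (3) and a median of -0.01. Of 344 values of single genes under other settings, 243 stayed within the counting interval, 101 did not, and 0 of the called genes changed sign. No paired analysis was possible because there was 1 library per group. The same fact limits every value: counting error is known and the spread between cultures is not.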
